A study of Mus musculus with 51 samples.

Results

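The genes described here are 33 genes of DNA replication, out of 18193 genes with a symbol on the array. They were chosen by function and not by their values, though with earlier results of these data known. They were matched to the array through its platform annotation. All 33 had a probe set that named no other gene. By role they were 10 helicase genes, 4 origin genes, 6 polymerase and primase genes, 4 genes of the sliding clamp and its loader, 5 genes of fragment maturation and single-strand binding, and 4 genes of nucleotide supply. After a filter on dim probe sets, 32 were tested in primary cells and 33 in each of the other cell types. Tyms did not pass in primary cells.

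The study measured RNA on 51 Affymetrix mouse arrays in 17 groups of 3, to see which transcripts depend on the HMGN family. These proteins bind the nucleosome, the unit of chromatin. Primary mouse embryonic fibroblasts (MEFs) of strain C57BL/6 gave 6 groups: an HMGN1, an HMGN3 and an HMGN5 knock out, each with a wild-type (WT) group of its own. MEFs transformed by the SV40 virus gave 8 groups, labelled for overexpression (OE) of an empty vector, HMGN1, HMGN2, HMGN3a, HMGN5 or HMGN5SE, or as HMGN1 N2swap and HMGN1 N3swap. MIN6 cells, which derive from a mouse beta cell tumour, gave 3 groups, carrying HMGN1, HMGN3a or no insert. The SV40 MEFs and MIN6 cells were infected with retrovirus, selected with puromycin, and collected as pools rather than clones. The labels give the same infection protocol for the primary MEFs but name no construct there. They do not say what was exchanged in the swaps, what SE stands for, or which allele or promoter was used.

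Chromosomal replication starts at origins, where the origin recognition complex, Cdc6 and Cdt1 load the Mcm2 to Mcm7 ring onto DNA. Cdc45 and the GINS complex turn this ring into the active helicase. DNA polymerase alpha and its primase lay down primers, which polymerases epsilon and delta extend while held by the Pcna clamp. Most of these genes are transcribed at the border of the G1 and S phases under E2F factors and the Rb family, so their RNA per culture depends on the share of cycling cells. The SV40 large T antigen binds Rb proteins, and transformed MEFs are therefore a different setting from primary MEFs.

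Levels are given as log2 intensity and were compared only within a cell type and a gene. Array medians of intensity ran from 5.47 to 5.93 for primary MEFs, from 18.7 to 19.6 for SV40 MEFs and from 55.5 to 57.6 for MIN6. A change is a difference of log2 group means ± its standard error, with n = 3 arrays per group. A gene is called at an adjusted p below 0.05 by limma with Benjamini-Hochberg adjustment over all genes tested in the cell type, and "rose" and "fell" are used only of called genes. Nothing in the labels says that replicate arrays came from different cultures or animals, so the p-values measure only the spread between these samples, which may be technical. The main Hmgn1 probe set fell by 0.67 in the HMGN1 knock out and Hmgn3 fell by 1.30 in the HMGN3 knock out. In the library group labelled HMGN5 knock out, Hmgn5 rose by 0.72. In SV40 MEFs the Hmgn1 probe set stood at -0.01 ± 0.07 with the HMGN1 construct, and Hmgn5 fell by 0.93 with HMGN5. Whether these probe sets lie in the deleted parts or read the constructs is not given in the sources used here.

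**Figure D1:**
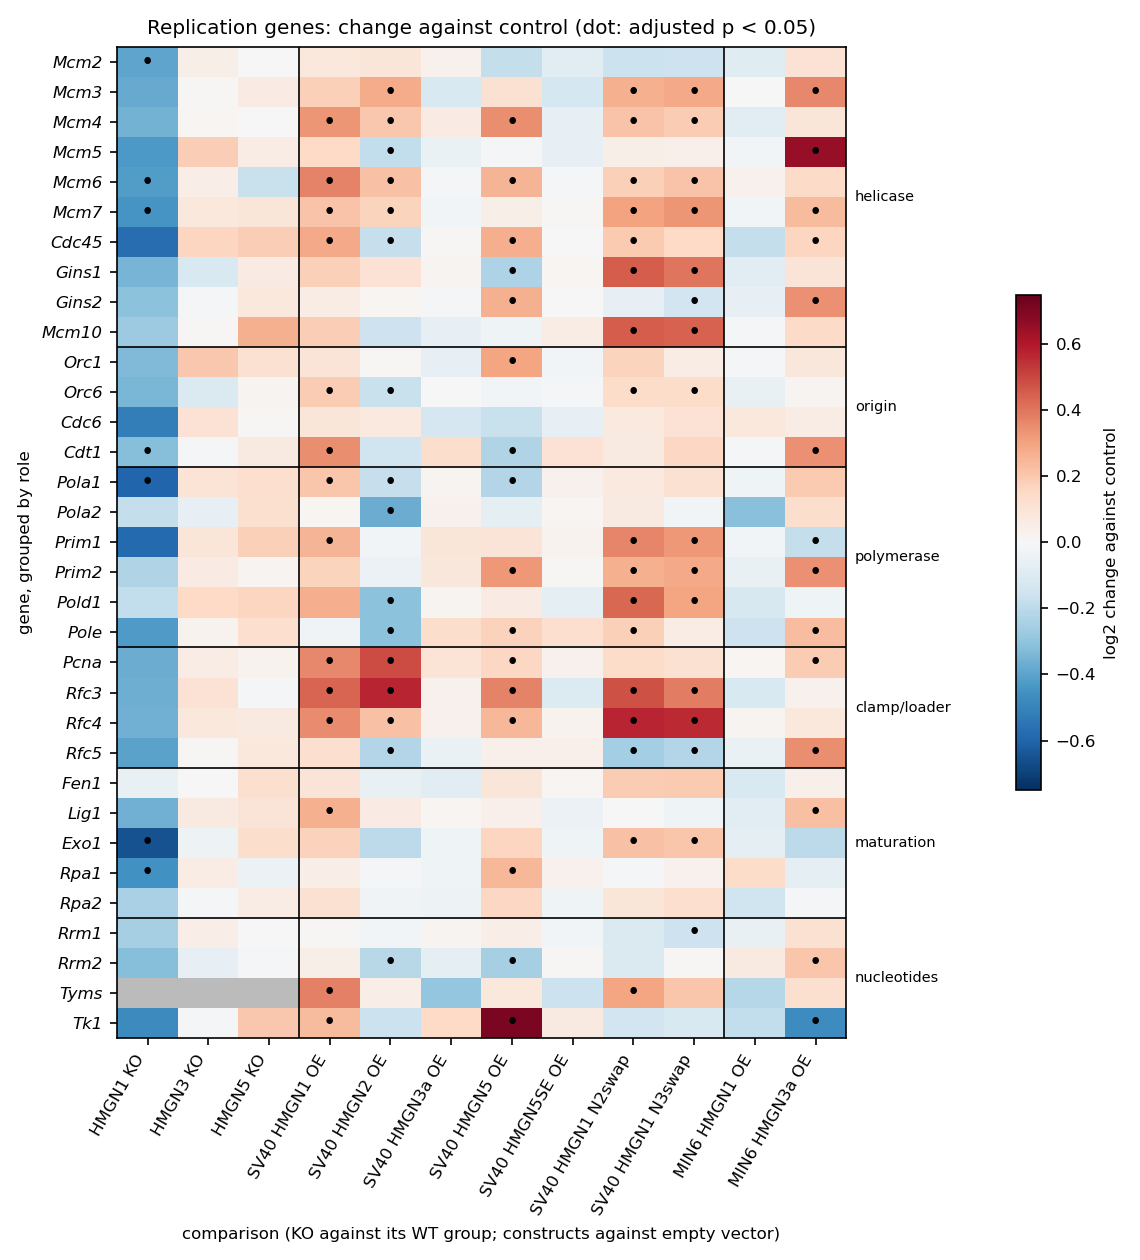
Each cell is the log2 change of 1 replication gene (rows, by role) in 1 knock out against its WT group or 1 construct against empty vector (columns), red for higher and blue for lower. Dots mark genes with an adjusted p below 0.05, and grey marks Tyms, which was not tested in primary MEFs. The first column, the HMGN1 knock out, is blue in all 32 tested genes, and the columns of HMGN3a and HMGN5SE in SV40 MEFs have no dot.

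Replication genes were lower in primary MEFs without HMGN1. Of 32 tested members, 7 fell and 0 rose. Of all 13674 genes, 0.351% fell and 0.0878% rose. All 32 changes were negative, with a median of -0.36 against -0.02 over all genes tested. At an unadjusted p below 0.05, 30 members were lower and 0 higher, where the shares of all genes were 10.3% and 5.25%. In 29 members the 3 knock out arrays lay below all 3 WT arrays, which held for 13.4% of all genes. Over all genes, 20.0% of calls were higher, or 43.5% after quantile normalization, and every called member was lower both times. In bulk RNA, fewer cycling cells and less RNA per cell cannot be told apart.

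Exo1 encodes an exonuclease that trims DNA ends in replication and mismatch repair. Its level was 3.96, 3.97 and 4.01 in the HMGN1 knock out arrays and 4.49, 4.78 and 4.64 in the WT arrays. The knock out arrays lay close together below every WT array, and Exo1 fell by 0.66 ± 0.13 (limma, adjusted p = 0.0296). Pola1, the catalytic subunit of polymerase alpha, stood at 4.53, 4.71 and 4.84 in the knock out and at 5.25, 5.37 and 5.25 in WT. It fell by 0.60 ± 0.11 (adjusted p = 0.0256), and its groups did not overlap.

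Rpa1, the large subunit of the protein that coats single-stranded DNA, stood at 7.54, 7.90 and 7.83 in the knock out and at 8.18, 8.19 and 8.26 in WT. Replicate 1 of the knock out was its lowest array, and the gene fell by 0.46 ± 0.08 (adjusted p = 0.0256). Mcm7, a subunit of the helicase ring, stood at 8.0, 8.08 and 8.02 against 8.42, 8.51 and 8.50. Both groups were tight and apart, and Mcm7 fell by 0.44 ± 0.08 (adjusted p = 0.0198). The remaining called genes were the ring subunits Mcm6 (-0.42 ± 0.05, adjusted p = 0.00151) and Mcm2 (-0.40 ± 0.08, adjusted p = 0.0359) and the loader Cdt1 (-0.32 ± 0.07, adjusted p = 0.0486). In linear terms these 7 genes were at 0.635 (Exo1) to 0.802 (Cdt1) of the WT level.

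Median changes were negative in every role. They were -0.39 for the helicase, -0.34 for origin genes, -0.32 for polymerases, -0.37 for clamp and loader, -0.36 for maturation and -0.32 for nucleotide supply. No clamp, loader or nucleotide gene was called. Several members with larger changes than some of the called ones missed the threshold, all with knock out arrays below the WT arrays: Prim1, the catalytic primase subunit (-0.59 ± 0.14, limma, adjusted p = 0.077), Cdc45 (-0.57 ± 0.16, adjusted p = 0.118), Cdc6 (-0.52 ± 0.11, adjusted p = 0.0547) and Tk1 (-0.48 ± 0.17, adjusted p = 0.198). Fen1, the nuclease that removes primer flaps, had the smallest change, at -0.05, and its groups overlapped. For the 6 called genes with more than 1 usable probe set, every probe set had the same sign.

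**Figure D2:**
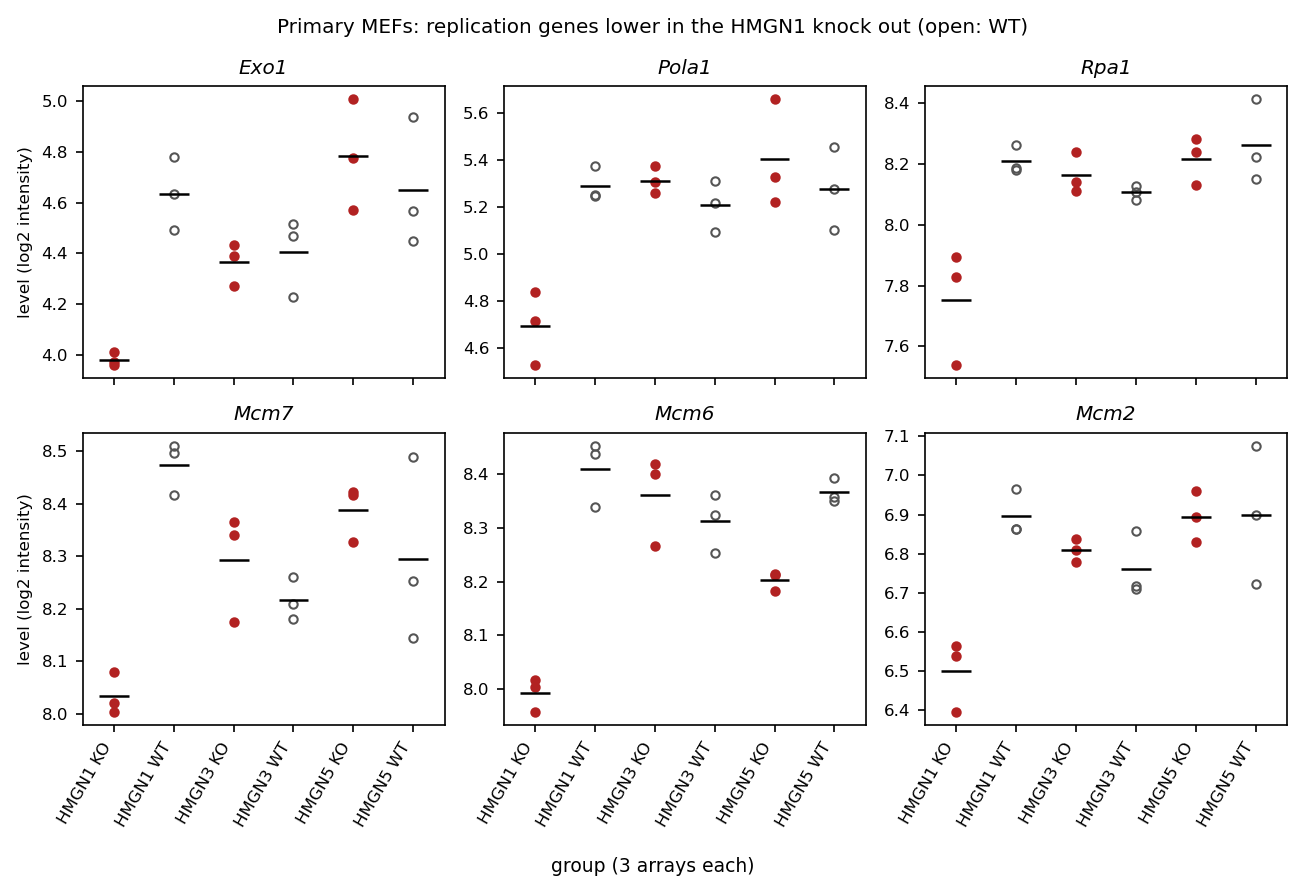
Level on the log2 scale (y axis) of 6 of the called genes on each primary MEF array, by group (x axis), with filled red points for knock outs, open points for WT and a line at the mean of 3 arrays. In all 6 panels the 3 HMGN1 knock out arrays lie below the 3 HMGN1 WT arrays, and Exo1 has its knock out arrays between 3.96 and 4.01.

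Other genes of the S phase and of mitosis were lower as well. Of 41 tested genes in a wider replication list, 2 fell and 0 rose, with a median of -0.24: Uhrf1, which maintains DNA methylation behind the fork (-0.59 ± 0.12, adjusted p = 0.0331), and Pole2, a subunit of polymerase epsilon (-0.56 ± 0.11, adjusted p = 0.0358). Of 12 E2F and Rb family genes, 1 fell, the Rb relative Rbl1 (-0.61), which is named here after its values were seen. Among 23 mitosis genes limma called 0, but 22 were lower at an unadjusted p below 0.05, and their median was -0.51. Relative to the WT mean, the mean over the replication members was -0.50, -0.29 and -0.33 in knock out replicates 1, 2 and 3. For the mitosis genes it was -0.70, -0.38 and -0.46, so replicate 1 was lowest on both lists.

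The number of calls depended on single arrays. The count of 7 became 1 without knock out replicate 1, without WT replicate 2 or without WT replicate 3, and 3 without knock out replicate 3, while the median stayed between -0.42 and -0.31 over the arrays left out. It was 0 when only these 6 arrays were fitted, which leaves fewer arrays to estimate the spread, and 4 when the male share was added as a covariate. The male share is a score, not a measured fraction of cells. It averages 3 Y-linked genes, each scaled from its lowest to its highest primary array. The score was 0.741, 0.0061 and 0.413 in the knock out arrays and at most 0.0083 in WT. Its part in the result was tested only through that covariate. The summed intensity of macrophage and leukocyte markers, of which 15 of 16 were above the filter level, was 551 to 751 in the knock out and 765 to 809 in WT. Fibroblast markers, 10 of 10 above the filter, summed to 20740 to 23700 and 21220 to 21610. Their part in the result was not tested.

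**Figure D3:**
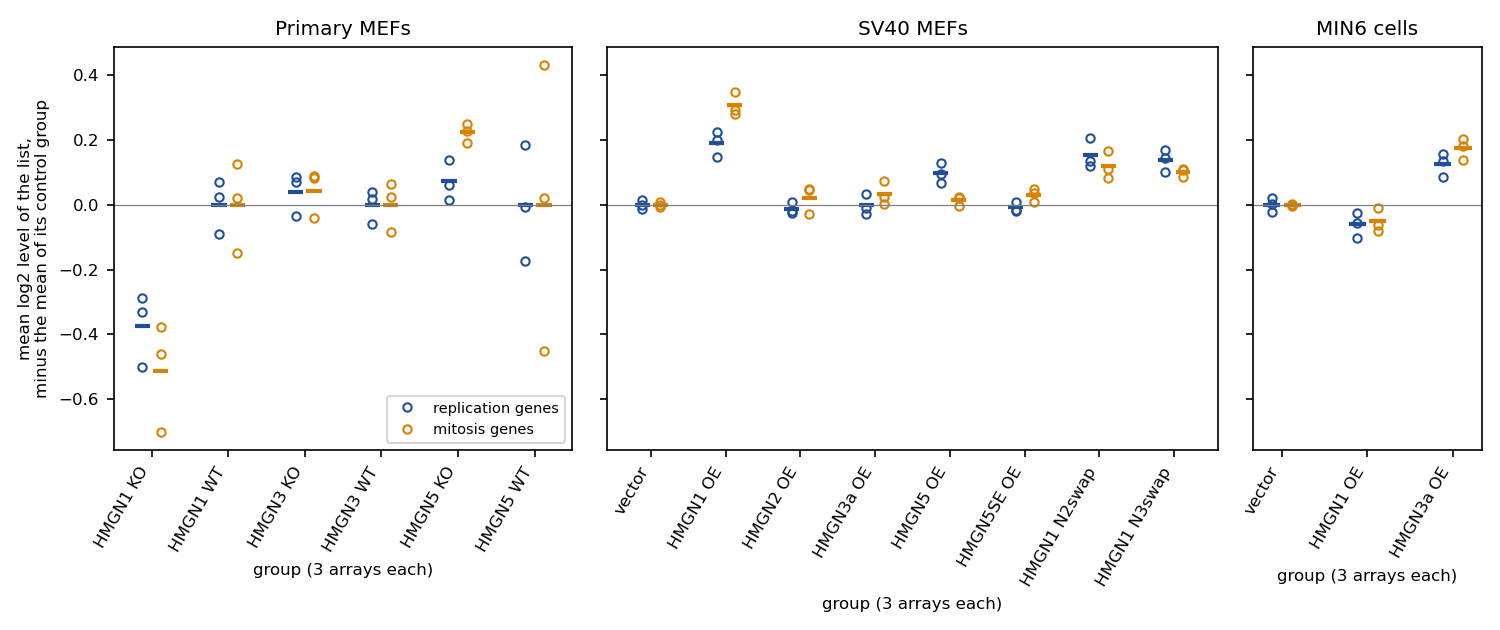
Mean log2 level of the replication genes (blue) and of the mitosis genes (orange) on each array (y axis, minus the mean of the matching WT or vector group), by group (x axis), with bars at the mean of 3 arrays. The HMGN1 knock out arrays lie between -0.50 and -0.29 for the replication genes, and the 3 HMGN5 WT arrays spread from -0.18 to 0.18.

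The knock outs of HMGN3 and HMGN5 gave no called member. In the HMGN3 knock out limma called 0 of 32, with 0.585% of all genes called. At an unadjusted p below 0.05, 1 member was higher and 0 lower (3.83% and 4.64% of all genes), and the median was 0.05. In the HMGN5 knock out it called 0 of 32, with 0.0731% of all genes called. There 2 members were higher and 1 lower at an unadjusted p below 0.05 (2.46% and 3.13% of all genes), and the median was 0.07. In both comparisons the unadjusted 95% interval of all 32 members lay within a 1.5-fold change in either direction. Changes that lie inside these intervals are not excluded.

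The members varied more among the HMGN5 WT arrays than in any other group, while over all genes the median SD of this group, 0.0776, was the lowest of the 6 primary groups. Relative to the group mean, the mean over the members was 0.18 in replicate 1, -0.18 in replicate 2 and -0.01 in replicate 3. Tk1, the salvage thymidine kinase, stood at 6.33, 5.46 and 5.92 in these arrays, and at 6.01, 6.28 and 6.03 in the HMGN5 knock out. The knock out arrays lay within the range of the WT arrays. The median SD of the members was 0.18 in this group and 0.07 to 0.12 in the other primary groups. Macrophage and leukocyte markers summed to 832 to 1525 in HMGN5 WT and to 510 to 2650 in the HMGN5 knock out.

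The HMGN1 effect was compared with the others directly. Its difference from the HMGN3 effect was negative in 32 of 32 members, with a median of -0.42. Mcm6 (-0.47 ± 0.07, adjusted p = 0.00994) and Mcm7 (-0.52 ± 0.11, adjusted p = 0.0453) were called, where 0.388% of all genes were called in that direction. The share of higher calls over all genes moved from 23.2% to 38.4% after quantile normalization. Only 1 member was called when any 1 of 10 arrays was left out. From the HMGN5 effect the median difference was -0.41, and limma called 0 of 32, with 0.161% of all genes called (18.2% of these higher, 30.0% after quantile normalization) and 25 members lower at an unadjusted p below 0.05 (7.26% of all genes). Without HMGN5 WT replicate 1 that count was 11, and without HMGN5 knock out replicate 1 it was 3. Between the HMGN3 and HMGN5 effects limma called 0 members, with 0.424% of all genes called and 1 member higher at an unadjusted p below 0.05 (3.99% of all genes).

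The WT groups also differed from each other. Against HMGN1 WT, 6 members fell in HMGN3 WT and 0 rose, where 20.4% of all genes fell and 11.1% rose, so the share of members (18.8%) was close to that of all genes. They were Cdc45 (-0.47), Orc1 (-0.47), Pole (-0.43), Rfc4 (-0.28), Pold1 (-0.28) and Mcm7 (-0.26). Cdc45 and Orc1 are uncertain, since another probe set of each changed by 0.08 and 0.15, and neither was called. The count was 3 without HMGN3 WT replicate 2 or 3 or HMGN1 WT replicate 2 or 3, and 1 with the male share as a covariate. HMGN5 WT had Pole (-0.37) and Pold1 (-0.28) lower than HMGN1 WT, where 7.01% of all genes fell. It had Prim2 (-0.31) lower than HMGN3 WT, where 7.32% fell. The count for HMGN5 WT against HMGN1 WT was 0 without HMGN5 WT replicate 2 or HMGN1 WT replicate 3, and 1 without HMGN5 WT replicate 3 or HMGN1 WT replicate 2. For HMGN5 WT against HMGN3 WT it was 2 without HMGN5 WT replicate 1 or 2, and 0 without HMGN5 WT replicate 3 or HMGN3 WT replicate 3. The male share score was at most 0.0083 in HMGN1 WT and at least 0.727 in HMGN3 and HMGN5 WT. Macrophage and leukocyte markers summed to 765 to 809 in HMGN1 WT and to 1695 to 1834 in HMGN3 WT, where 5 of 15 were higher and 0 lower. Of 10 fibroblast markers 4 were higher in HMGN3 WT and 0 lower, led by Dcn, at 8.05 times its HMGN1 WT level. The part of these markers in the result was not tested.

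The promoters of genes that fell without HMGN1 are shown because several hold the same word. RefSeq promoter windows (build GRCm38.p6), from 250 bases before to 50 bases after the transcript start, were found for 27 of the 33 members. An E2F word was taken as TTTCCCGC, TTTCGCGC, TTTGCCGC or TTTGGCGC on either strand, and words may overlap. It was in 10 of 27 member windows (37.0%), in 1 of 20 windows of mitosis genes (5.0%) and in 510 of 17492 windows of protein-coding genes (2.92%). The members with a word were Mcm3, Mcm5, Mcm6, Mcm7, Orc1, Cdc6, Cdt1, Pola1, Pold1 and Rfc3. CCAAT on either strand was in 63.0% of member windows and 39.0% of all, and GGGCGG in 66.7% and 46.3%. Below are Mcm6, Mcm7, Cdt1 and Pola1, which fell without HMGN1 and rose with HMGN1 in SV40 MEFs, and Rfc3 and Mcm5, which rose most with HMGN1 in SV40 MEFs and with HMGN3a in MIN6 cells. Each is written 5′ to 3′ on the gene's strand with E2F words in capitals.
Mcm6 (chr1:128359656-128359955, minus strand): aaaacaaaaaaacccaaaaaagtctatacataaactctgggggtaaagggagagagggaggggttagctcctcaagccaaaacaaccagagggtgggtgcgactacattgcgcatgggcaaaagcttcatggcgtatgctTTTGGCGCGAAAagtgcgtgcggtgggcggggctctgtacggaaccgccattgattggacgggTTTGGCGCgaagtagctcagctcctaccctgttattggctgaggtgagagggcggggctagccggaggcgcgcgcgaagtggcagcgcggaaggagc
Mcm7 (chr5:138171834-138172133, minus strand): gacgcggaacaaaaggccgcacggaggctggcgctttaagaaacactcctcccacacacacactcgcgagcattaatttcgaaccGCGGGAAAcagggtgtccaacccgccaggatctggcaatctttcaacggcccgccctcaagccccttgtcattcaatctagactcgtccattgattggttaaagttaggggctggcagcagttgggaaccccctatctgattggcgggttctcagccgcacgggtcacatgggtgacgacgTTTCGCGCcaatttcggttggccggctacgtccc
Cdt1 (chr8:122567765-122568064, plus strand): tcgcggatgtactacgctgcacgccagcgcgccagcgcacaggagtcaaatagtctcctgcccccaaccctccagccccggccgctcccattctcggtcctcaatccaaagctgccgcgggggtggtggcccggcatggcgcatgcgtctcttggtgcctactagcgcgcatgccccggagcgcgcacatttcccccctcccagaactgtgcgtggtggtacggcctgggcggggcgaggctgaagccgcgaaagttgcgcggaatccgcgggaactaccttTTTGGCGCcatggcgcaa
Pola1 (chrX:93632106-93632405, minus strand): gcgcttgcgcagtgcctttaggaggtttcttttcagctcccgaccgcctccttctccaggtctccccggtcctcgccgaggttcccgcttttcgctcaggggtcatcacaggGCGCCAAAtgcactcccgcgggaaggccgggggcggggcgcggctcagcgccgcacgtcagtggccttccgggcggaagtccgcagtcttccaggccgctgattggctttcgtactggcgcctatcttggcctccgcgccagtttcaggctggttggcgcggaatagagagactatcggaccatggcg
Rfc3 (chr5:151651159-151651458, minus strand): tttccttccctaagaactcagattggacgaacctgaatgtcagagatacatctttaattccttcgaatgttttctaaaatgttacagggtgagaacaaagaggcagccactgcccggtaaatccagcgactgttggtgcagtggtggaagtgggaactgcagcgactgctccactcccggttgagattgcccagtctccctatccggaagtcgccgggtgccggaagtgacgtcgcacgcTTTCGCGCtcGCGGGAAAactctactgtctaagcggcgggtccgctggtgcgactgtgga
Mcm5 (chr8:75109259-75109558, plus strand): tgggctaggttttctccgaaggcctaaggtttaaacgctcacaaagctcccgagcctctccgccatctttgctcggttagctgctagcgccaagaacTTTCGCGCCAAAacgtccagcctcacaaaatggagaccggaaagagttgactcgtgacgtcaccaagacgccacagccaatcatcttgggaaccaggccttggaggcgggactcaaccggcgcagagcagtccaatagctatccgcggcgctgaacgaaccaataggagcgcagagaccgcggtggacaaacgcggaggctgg
Mcm6 held 3 words and Mcm5 held 2, and the first pair overlaps in both. In Rfc3 the words begin 10 bases before the start and at the start itself. A match describes these letters and is not a measured binding site. Of the other genes that fell without HMGN1, Mcm2 and Rpa1 had windows with no such word, and Exo1 had no window in the table.

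In SV40 MEFs replication genes were higher with the HMGN1 construct than with vector. Of 33 members, 14 rose and 0 fell, that is 42.4% higher, where 17.4% of all genes rose and 12.1% fell. After quantile normalization the share of higher calls moved from 59.0% to 48.9% over all genes, and every called member was higher both times. The median change was 0.18, against 0.00 over all genes tested, and 32 of 33 changes were positive. In 24 members the HMGN1 arrays lay above all vector arrays, which held for 27.8% of all genes. The 7 constructs share the same 3 vector arrays, so their comparisons are not independent.

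Rises included the clamp loader, the clamp and the helicase. Rfc3, a subunit of the complex that opens the clamp, stood at 8.43, 8.55 and 8.72 with HMGN1 and at 8.09, 8.19 and 8.13 with vector, a rise of 0.43 ± 0.10 (limma, adjusted p = 0.00268). Mcm6 stood at 10.93, 10.96 and 11.04 against 10.68, 10.59 and 10.55, a rise of 0.37 ± 0.06 (adjusted p = 7.09e-05). Pcna, the sliding clamp, stood at 12.26, 12.26 and 12.32 against 11.92, 11.92 and 11.91, a rise of 0.36 ± 0.06 (adjusted p = 5.99e-05). In each of these genes all 3 HMGN1 arrays lay above all vector arrays, and the Pcna vector arrays were almost equal.

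Tyms, which makes thymidylate, stood at 5.73, 6.11 and 5.70 against 5.48, 5.47 and 5.46, a rise of 0.38 ± 0.11 (adjusted p = 0.00970). A brighter probe set that it shares with its pseudogene Tyms-ps changed by 0.06, with an adjusted p of 0.643, so the rise of Tyms is uncertain. Further rises were those of Rfc4 (0.36 ± 0.06), Cdt1 (0.35 ± 0.06), Mcm4 (0.33 ± 0.05) and Cdc45 (0.28 ± 0.07). By role, 4 of 10 helicase genes, 2 of 4 origin genes, 2 of 6 polymerase genes, 3 of 4 clamp genes, 1 of 5 maturation genes and 2 of 4 nucleotide genes rose.

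The wider replication list rose in 15 of 41 genes and fell in 1, where 17.4% of all genes rose and 12.1% fell. Its median was 0.12. Its largest rises were in Slbp, which handles histone mRNA (0.40 ± 0.05, adjusted p = 3.67e-06), Gmnn, the inhibitor of Cdt1 (0.39 ± 0.07, adjusted p = 0.000256), Mcm9 (0.38 ± 0.13) and Rpa3 (0.38 ± 0.07). Of 23 mitosis genes 19 rose and 0 fell, with a median of 0.31. Leaving out 1 array at a time gave 11 to 15 called members. Fibroblast markers summed to 8208 to 8523 with HMGN1 and to 7775 to 8051 with vector, and their part in the result was not tested.

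With HMGN2 the members moved both ways. Of 33 members, 7 rose (21.2%) and 9 fell (27.3%), where 18.7% of all genes rose and 25.6% fell, so both shares were close to those of all genes. The median change was -0.02. Differences between roles were not tested, and each role holds few genes. In the clamp and loader 3 of 4 genes rose and 1 fell, among the polymerases 0 rose and 4 of 6 fell, and the helicase had 4 rises and 2 falls among 10 genes.

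Rfc3 rose furthest, with 8.55, 8.81 and 8.75 against vector arrays of 8.09, 8.19 and 8.13 (0.57 ± 0.10, limma, adjusted p = 0.000111). Pcna stood at 12.40, 12.43 and 12.39 against 11.92, 11.92 and 11.91 (0.49 ± 0.06, adjusted p = 5.09e-07). Pola2, the accessory subunit of polymerase alpha, fell from 9.31, 9.28 and 9.26 with vector to 8.82, 8.92 and 8.98 (-0.37 ± 0.06, adjusted p = 6.82e-05). None of these 3 genes had overlapping groups. Pold1 and Pole, the catalytic subunits of polymerases delta and epsilon, fell by 0.31 ± 0.11 and 0.31 ± 0.06, and Pola1 fell by 0.17 ± 0.06. Pold1 is uncertain, since another of its probe sets changed by 0.05 ± 0.08 and was not called.

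Other rises with HMGN2 were Mcm3 (0.28), Mcm6 (0.22), Rfc4 (0.22), Mcm4 (0.20) and Mcm7 (0.17). Other falls were Rfc5 (-0.22), Rrm2, the inducible subunit of ribonucleotide reductase (-0.21), Mcm5 (-0.19), Cdc45 (-0.17), whose groups overlapped, and Orc6. Of the 11 called members with several probe sets, 6 had one with a change of the other sign. Only that of Mcm5 was called, a rise of 0.45 ± 0.07 (limma, adjusted p = 5.8e-05), and the others were those of Pold1, Rrm2 (0.22), Mcm3 (-0.35), Mcm4 (-0.07) and Rfc4 (-0.01). In the wider list 6 of 41 genes rose and 12 fell, where 18.7% of all genes rose and 25.6% fell. Mtbp, a partner of the origin firing factor Ticrr, fell by 0.82, Recql4, a helicase of origin firing, fell by 0.65, Uhrf1 rose by 0.54 and Cdc7, the kinase that fires origins, fell by 0.50. Of 23 mitosis genes 3 rose and 1 fell. Of 9 fibroblast markers 7 rose, and their summed intensity was 15240 to 16680 against 7775 to 8051 with vector. Xist stood at 6.16 to 6.55 against 4.70 to 4.91, and the Actb 3' probe set exceeded the 5' one by 0.0072 to 0.20 against 0.23 to 0.29. With that Actb difference as a covariate 7 members rose and 6 fell. The part of the markers and of Xist in the result was not tested.

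The difference between HMGN2 and HMGN1 in SV40 MEFs was tested directly. With HMGN2, 19 of 33 members were lower than with HMGN1 and 0 higher, where 26.2% of all genes were lower and 14.9% higher. All 6 polymerase and primase genes were lower. Pold1 stood at 7.84, 7.85 and 7.89 with HMGN2 and at 8.30, 8.56 and 8.48 with HMGN1, a difference of -0.58 ± 0.11 (limma, adjusted p = 0.000185). Cdt1 stood at 10.63, 10.72 and 10.65 against 11.14, 11.16 and 11.18, a difference of -0.49 ± 0.06 (adjusted p = 1.23e-06). Cdc45 stood at 7.69, 7.67 and 7.75 against 8.09, 8.14 and 8.25, a difference of -0.46 ± 0.07 (adjusted p = 1.41e-05). The groups of these 3 genes did not overlap. Tk1 (-0.40), Pola2 (-0.38), Pola1 (-0.38), Exo1 (-0.37) and Orc6 (-0.36) followed, while the clamp and loader had a median difference of -0.01. Tyms was among the 19, but its shared probe set was higher by 0.21 with HMGN2 (limma, adjusted p = 0.0301), and 2 other probe sets of Mcm10 were higher by 0.52 and 0.53. Of 13 called members with several probe sets, 4 had at least one of the other sign. Besides Mcm10 these were the primase gene Prim2 (0.20), Mcm5 (0.11) and Rrm2 (0.20), whose other probe sets were not called. The lower level of Prim2 is therefore uncertain. Xist stood at 6.16 to 6.55 with HMGN2 and 4.13 to 4.35 with HMGN1, and 7 of 9 fibroblast markers were higher with HMGN2. Their part in the result was not tested.

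**Figure D4:**
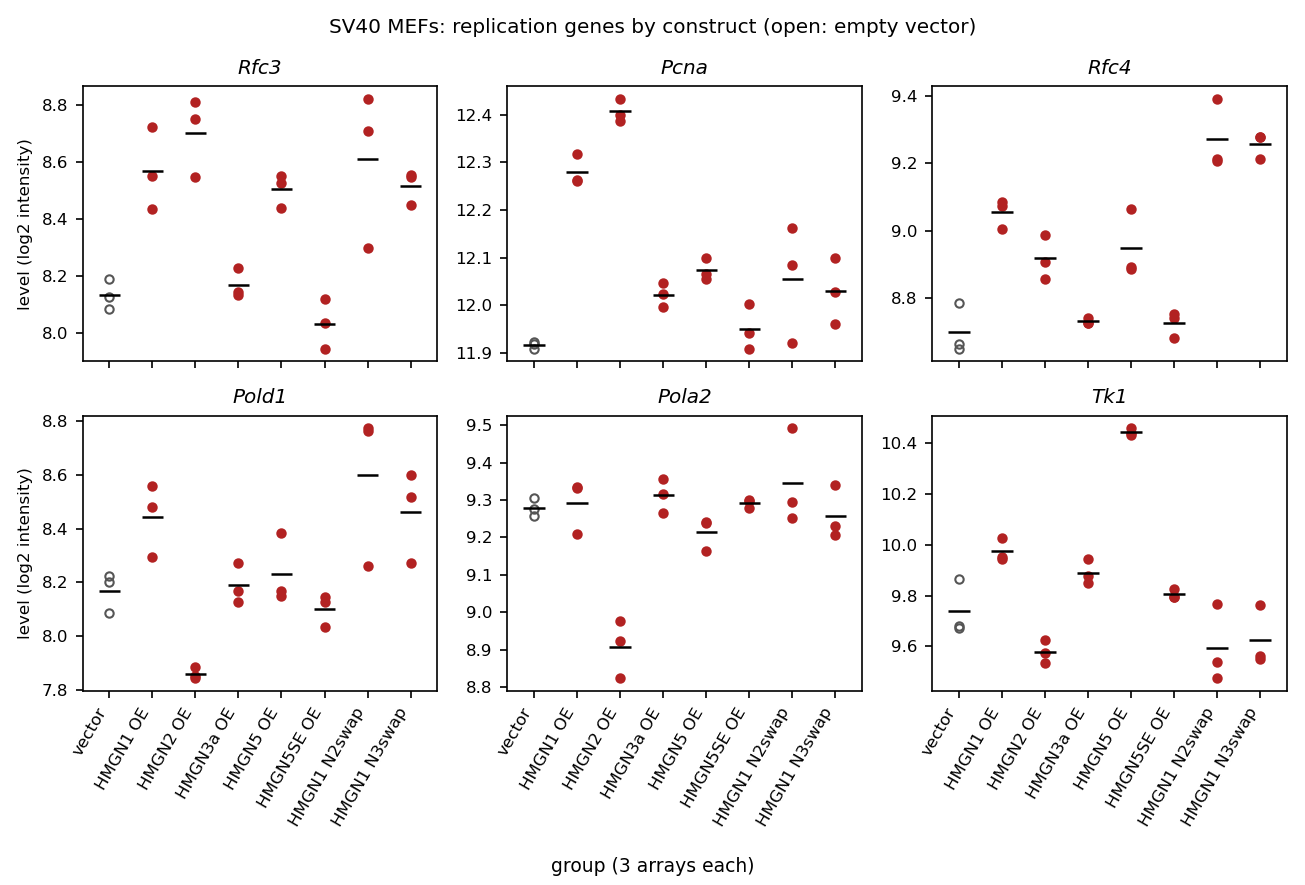
Level on the log2 scale (y axis) of 6 replication genes on each SV40 MEF array, by construct (x axis), with open points for empty vector, filled red points for constructs and a line at the mean of 3 arrays. Rfc3 and Pcna are above vector with HMGN1, HMGN2 and HMGN5, Pold1 and Pola2 are below it with HMGN2, and Tk1 is highest with HMGN5, between 10.43 and 10.46.

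With HMGN5, 12 of 33 members rose (36.4%) and 4 fell (12.1%), where 20.7% of all genes rose and 20.8% fell. The median change was 0.09. Tk1 had the largest change of any member in SV40 MEFs against vector. It stood at 10.44, 10.46 and 10.43 with HMGN5 and at 9.87, 9.68 and 9.67 with vector, a rise of 0.70 ± 0.07 (limma, adjusted p = 4.74e-08). Rfc3 stood at 8.44, 8.53 and 8.55 against 8.09, 8.19 and 8.13, a rise of 0.37 ± 0.10 (adjusted p = 0.00506). Mcm4 stood at 10.77, 10.81 and 10.76 against 10.45, 10.40 and 10.44, a rise of 0.35 ± 0.05 (adjusted p = 2.27e-06).

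Further rises with HMGN5 were Prim2, the large primase subunit (0.32), the origin gene Orc1 (0.30), the helicase partners Cdc45 (0.27) and Gins2 (0.27), and Mcm6 (0.25). The 4 falls were Rrm2 (-0.25), the GINS subunit Gins1 (-0.23), Cdt1 (-0.23) and Pola1 (-0.22). Gins1 and Gins2, subunits of the same complex, thus went opposite ways. In the wider list 10 of 41 genes rose and 5 fell, where 20.7% of all genes rose and 20.8% fell. Mtbp fell by 1.54 ± 0.06 (adjusted p = 5.7e-15), and the small polymerase subunits Pole3 and Pold4 rose by 0.61 and 0.46. Of 23 mitosis genes 4 rose and 2 fell, with a median of -0.02. Fibroblast markers rose in 6 of 9 genes and fell in 1, with sums of 16990 to 17650, and their part in the result was not tested.

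HMGN5SE and HMGN3a gave no called member in SV40 MEFs. With HMGN5SE limma called 0 of 33, with 0.0148% of all genes called and 0 members past an unadjusted p below 0.05 (5.23% of all genes). With HMGN3a it called 0 of 33, with 0.0297% of all genes called, and 2 members were higher and 1 lower at an unadjusted p below 0.05 (6.62% and 4.26%). Medians were 0.00 and 0.01, and the 95% intervals of all 33 members lay within a 1.5-fold change for both. Against HMGN5SE, HMGN5 had 12 members higher and 4 lower, where 19.8% of all genes were higher and 22.2% lower. Tk1 stood at 9.80, 9.82 and 9.80 with HMGN5SE, so all 3 HMGN5 arrays lay above them, a difference of 0.64 ± 0.07 (adjusted p = 2.06e-07). Rfc3 (0.47 ± 0.10), Mcm4 (0.41 ± 0.05) and Orc1 (0.32 ± 0.10) were also higher, with Prim2, Cdc45, Mcm6 and Gins2 between 0.26 and 0.31. Cdt1 (-0.34 ± 0.06), Rrm2 (-0.26), Pola1 (-0.25) and Gins1 (-0.25) were lower.

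With the swap constructs more members rose than fell. With HMGN1 N2swap 16 of 33 rose (48.5%) and 1 fell (3.03%), where 17.7% of all genes rose and 19.3% fell. With HMGN1 N3swap 13 rose (39.4%) and 3 fell (9.09%), where 17.4% of all genes rose and 20.0% fell. Medians were 0.16 and 0.14. Rfc4, a subunit of the clamp loader, stood at 9.21, 9.39 and 9.21 with N2swap, 9.21, 9.28 and 9.28 with N3swap, and 8.65, 8.66 and 8.78 with vector. It rose by 0.57 ± 0.06 (limma, adjusted p = 3.75e-07) and 0.56 ± 0.06 (adjusted p = 5.36e-07), with both swap groups above all vector arrays.

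Mcm10, which acts when the helicase is switched on, stood at 8.91, 8.88 and 8.62 with N2swap and at 8.39, 8.31 and 8.34 with vector, a rise of 0.45 ± 0.08 (adjusted p = 0.000137). Gins1 stood at 8.66, 8.91 and 8.65 against 8.34, 8.31 and 8.21, a rise of 0.45 ± 0.07 (adjusted p = 1.84e-05). With N3swap these genes rose by 0.44 ± 0.08 and 0.40 ± 0.07. Mcm10 is uncertain with both swaps, since another of its probe sets changed by -0.16 and -0.18 and was not called. Of 13 called members with several probe sets in each comparison, 3 with N2swap and 4 with N3swap had one of the other sign. Other large rises with N2swap were Rfc3 (0.48), Pold1 (0.43), the primase subunit Prim1 (0.36), Mcm7 (0.30) and Tyms (0.30), and Rfc5 fell by 0.26. With N3swap they were Rfc3 (0.38), Mcm7 (0.33), Prim1 (0.32), Pold1 (0.29) and Mcm3 (0.28), and the falls were Rfc5 (-0.22), the reductase subunit Rrm1 (-0.15) and Gins2 (-0.14). The falls of Rrm1 and Gins2 are uncertain. Under other settings Rrm1 kept its call in 2 and lost it in 10, and Gins2 in 1 and 11. Another probe set of Rrm1 changed by 0.10 and was not called. Tyms by its shared probe set changed by 0.12 with N2swap and was not called.

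Both swap groups stood apart on RNA quality. The Actb 3' probe set exceeded the 5' one by 0.39 to 0.79 with N2swap, by 0.47 to 0.77 with N3swap and by 0.23 to 0.29 with vector. With that difference as a covariate, 10 members rose and 0 fell in each comparison. The counts were 10 and 10 as well when only the compared groups were fitted, and 11 for N2swap without N2swap replicate 2 or without vector replicate 3. Pold1 is uncertain with N3swap, since its change turned to -0.07 with the covariate, and Exo1, which rose by 0.21 with N3swap, had another probe set that fell by 0.39. Xist stood higher than with vector in these pools, as it did with HMGN2, at 6.88 to 7.78 and 6.89 to 7.19 against 4.70 to 4.91. Of 9 fibroblast markers 3 rose and 0 fell in each comparison, and they summed to 8839 to 10870 with N2swap, 9395 to 10050 with N3swap and 7775 to 8051 with vector. The part of Xist and of the markers in the result was not tested.

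In the wider list 10 of 41 genes rose and 5 fell with N2swap, where 17.7% of all genes rose and 19.3% fell. With N3swap 8 rose and 6 fell, where 17.4% of all genes rose and 20% fell. Mtbp fell by 0.72 and 0.70, and Gins3, a further member of the GINS complex, rose by 0.53 and 0.49. Ccne1, the cyclin that starts S phase, fell by 0.49 with N2swap. Of 23 mitosis genes 9 rose and 1 fell with N2swap, and 10 rose and 1 fell with N3swap.

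The swaps were also set against the unswapped construct. Relative to HMGN1, N2swap had 4 members higher and 9 lower (20.0% and 26.1% of all genes), and N3swap had 3 higher and 10 lower (22.7% and 28.2%). These shares of 12.1% and 27.3%, and 9.09% and 30.3%, were near or below those of all genes. After quantile normalization the share of higher calls among the called members of the first comparison moved from 30.8% to 41.7%. With N2swap the largest differences were those of Rfc5 (-0.38), Tk1 (-0.38), Cdt1 (-0.28), Lig1 (-0.27) and Pcna (-0.23) below HMGN1, and Gins1 (0.27), Mcm10 (0.27), Rfc4 (0.22) and Pole (0.21) above it. With N3swap they were Tk1 (-0.35), Rfc5 (-0.34), Lig1 (-0.30), Pcna (-0.25) and Gins2 (-0.20) below, and Mcm10 (0.26), Gins1 (0.23) and Rfc4 (0.20) above. Mcm10 is uncertain in both comparisons, since another of its probe sets changed by -0.11 and -0.13 and was not called. Called counts dropped from 13 to 5 and from 13 to 7 when only the compared groups were fitted. Mcm2 was lower in both (-0.24) with overlapping groups, and its difference turned to 0.12 and 0.09 with the Actb covariate.

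Against HMGN2, N2swap had 15 members higher and 2 lower, where 27.7% of all genes were higher and 22.5% lower. All 6 polymerase and primase genes were higher. Pold1 stood at 8.76, 8.78 and 8.26 with N2swap and at 7.84, 7.85 and 7.89 with HMGN2, a difference of 0.74 ± 0.11 (limma, adjusted p = 1e-05). Replicate 3 of N2swap was the lowest of its group and still above every HMGN2 array. Pole (0.49), Pola2 (0.44), Prim1 (0.39), Prim2 (0.31) and Pola1 (0.24) followed. With the Actb covariate 5 members were higher and 0 lower, Mcm2 turned from -0.25 to 0.31 and Fen1 from 0.25 to -0.19. Mcm5, Mcm10, Fen1 and Exo1 are uncertain here, since each had another probe set called the other way. Pola2 is uncertain too, since its other probe sets changed by -0.04 and -0.22, and neither was called. Of 12 called members with several probe sets, 7 had at least one of the other sign.

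In MIN6 cells the HMGN1 construct gave no called member. Limma called 0 of 33, with 1.15% of all genes called. At an unadjusted p below 0.05, 7 members were lower (10.7% of all genes) and 0 higher, and the median was -0.05. In 11 members the HMGN1 arrays lay below all vector arrays, where this held for 16.4% of all genes. The 95% intervals of all 33 members lay within a 1.5-fold change.

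With HMGN3a in MIN6 cells 12 of 33 members rose (36.4%) and 2 fell (6.06%), where 14.5% of all genes rose and 19.5% fell. The median change was 0.12, against 0.01 over all genes tested. Mcm5 stood at 11.34, 11.54 and 11.34 with HMGN3a and at 10.68, 10.75 and 10.83 with vector, a rise of 0.65 ± 0.08 (limma, adjusted p = 0.000156). Mcm3 stood at 11.39, 11.52 and 11.63 against 11.01, 11.24 and 11.22, a rise of 0.36 ± 0.08 (adjusted p = 0.00502). Both ring subunits were higher in every HMGN3a array, and Mcm5 was at 1.57 times its vector level.

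Tk1 went the other way, with 9.70, 9.86 and 9.83 against 10.19, 10.30 and 10.31, a fall of 0.47 ± 0.06 (adjusted p = 0.000203). Rfc5 stood at 9.98, 9.88 and 10.03 against 9.70, 9.61 and 9.54, a rise of 0.35 ± 0.06 (adjusted p = 0.00153). Neither gene had overlapping groups. Prim2 (0.35), Gins2 (0.34), Cdt1 (0.34), Mcm7 (0.24) and Pole (0.23) also rose, as did Lig1, the ligase that seals Okazaki fragments, Rrm2, Pcna and Cdc45. The vector arrays for Pole held the same value 3 times, 9.11. Prim1 fell by 0.18, while its partner Prim2 rose. The calls of Prim1, Cdc45 and Rrm2 are uncertain. Under other settings Prim1 kept its call in 2 and lost it in 10, Cdc45 in 3 and 9, and Rrm2 in 4 and 8. By role, 5 of 10 helicase genes, 1 of 4 origin genes, 2 of 6 polymerase genes, 2 of 4 clamp genes, 1 of 5 maturation genes and 1 of 4 nucleotide genes rose.

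**Figure D5:**
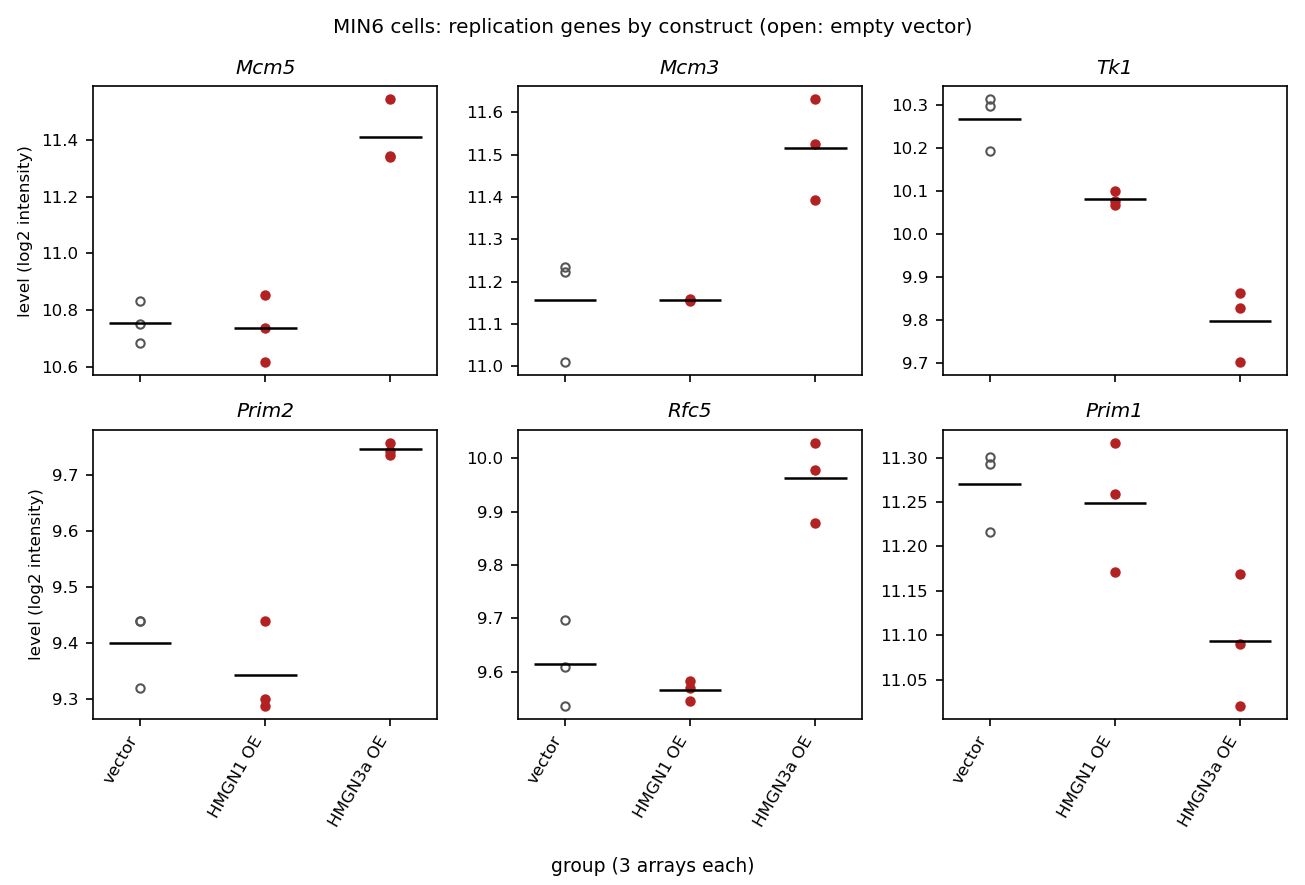
Level on the log2 scale (y axis) of 6 replication genes on each MIN6 array, by construct (x axis), with open points for empty vector, filled red points for constructs and a line at the mean of 3 arrays. Mcm5, Mcm3, Prim2 and Rfc5 have all 3 HMGN3a arrays above the vector arrays, and Tk1 and Prim1 have them below.

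In the wider list 15 of 41 genes rose and 5 fell with HMGN3a in MIN6 cells, where 14.5% of all genes rose and 19.5% fell. Gins3 (0.65 ± 0.08, adjusted p = 0.000116), Mcmbp, a binding partner of the Mcm ring (0.45), and Wdhd1, which ties polymerase alpha to the helicase (0.37), rose, and Pole3 fell by 0.56. Of 23 mitosis genes 13 rose and 2 fell, with a median of 0.21. Against HMGN1 rather than vector, HMGN3a had 17 members higher and 1 lower, where 16.3% of all genes were higher and 17.7% lower. Mcm5 was at 0.67 ± 0.08, Pola2 at 0.45, Gins2 at 0.41, Prim2 at 0.40 and Rfc5 at 0.40, and Tk1 at -0.28 ± 0.06. Of 12 called members with several probe sets, 3 had one of the other sign. Those of Mcm2, Mcm4 and Prim2 changed by -0.06, -0.06 and -0.05 and were not called. All 9 beta cell markers tested were above the filter level in every MIN6 group, with sums of 61800 to 62660 for HMGN3a and 60180 to 61850 for vector. Single markers did change. With HMGN3a against vector Slc2a2 fell by 1.26 and Pcsk1 rose by 0.18, and the others were not called. Slc2a2 also fell by 0.81 with HMGN1. The part of these markers in the result was not tested. Epithelial markers rose in 4 of 5 genes with HMGN3a, with sums of 6969 to 7475 against 5100 to 5232, and their part in the result was not tested.

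Across the 12 comparisons against WT or vector, 3 members were never called. They were Cdc6, a loader of the Mcm ring, Fen1 and Rpa2, the middle subunit of the single-strand binding protein. Rfc3 had called changes of 0.43, 0.57, 0.37, 0.48 and 0.38 with HMGN1, HMGN2, HMGN5, N2swap and N3swap in SV40 MEFs, and uncalled changes of 0.03 with HMGN3a and -0.10 with HMGN5SE. Mcm6 had called changes of -0.42 in the HMGN1 knock out and 0.37 with HMGN1 in SV40 MEFs, and 0.03 with HMGN1 in MIN6 cells, where it was not called.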

How the data were processed

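RNA of 51 samples was measured on 1-colour Affymetrix Mouse Genome 430 2.0 arrays, with 1 array per sample. The values deposited by the authors are linear intensity values per probe set. Per the submitters' processing notes they were computed by RMA, and the software version and settings are not given in the sources used here. Scanner files were not used here, and the number of arrays limits the precision. Array medians differed between the cell types, so each cell type was analysed alone.

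Values were taken to log2. Of 45101 probe sets, 64 were controls, 34945 had 1 gene symbol in the platform annotation (updated through RefSeq), 932 had several and 9160 had none. A probe set was kept where its highest group mean reached the 40th percentile of group means. The brightest kept probe set stood for its gene, which left 13674, 13469 and 13179 genes in primary MEFs, SV40 MEFs and MIN6 cells. Group means were fitted with limma (version 3.58.1, R 4.3.3) over all groups of a cell type with no covariate, and p-values were adjusted by Benjamini-Hochberg over all genes of the comparison. Tables and figures were made with Python 3.11.15, pandas 2.3.3 and matplotlib 3.10.9. The fit was tested on simulated data with known changes. Replicate arrays were compared, and none held identical values.

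The 24 comparisons made here were 12 against WT or vector, 6 between constructs, 3 between WT groups and 3 between knock out effects. The members and lists were chosen with earlier results of these data known. All 33 members could be named. Up to 8 rises and 8 falls per comparison carry values, and up to 4 members carry values per array, namely those with the largest change and no overlap. Up to 4 genes of the wider list were named per comparison. Alternatives were no filter, every probe set alone, quantile normalization, a replicate block, only the compared groups, a covariate (male share or Actb 3' minus 5') and leaving out each array. One alternative, Tyms read from its shared probe set, was chosen after seeing the data. Promoter windows are from RefSeq (GRCm38.p6).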

Additional observations from a re-analysis of the deposited data

Results flagged for a closer look

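Differences between the HMGN1 and HMGN3 knock out effects in primary MEFs passed the test for the ring subunits Mcm6 (-0.47 ± 0.07, limma with Benjamini-Hochberg adjustment, adjusted p = 0.00994) and Mcm7 (-0.52 ± 0.11, adjusted p = 0.0453). Both genes were lower in 3 of 3 HMGN1 knock out arrays than in any HMGN1 WT array.

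Some members had all 3 construct arrays above all vector arrays in one cell line and below them in the other. The difference was not tested for any of them, since the lines were analysed separately. With HMGN1, values in SV40 MEFs and MIN6 cells were 0.33 and -0.087 for Mcm4, 0.28 and -0.18 for Cdc45, 0.19 and -0.054 for Orc6, and 0.28 and -0.12 for Pold1. They were 0.12 and -0.15 for Rpa2, 0.38 and -0.21 for Tyms, and 0.23 and -0.19 for Tk1. Pold1 and Tyms were read from a different probe set in each line, so their opposite signs do not compare the same measurement. The rise of Tyms in SV40 MEFs is also uncertain, as given above. No MIN6 value among these was called by limma, nor were Pold1 and Rpa2 in SV40 MEFs. With HMGN3a the values were -0.12 and 0.36 for Mcm3 and 0.094 and -0.18 for Prim1, of which only the MIN6 values were called.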

How the results depend on the processing

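Of 330 values of the 24 member counts under other settings, 281 stayed within 1.5 times the main count and 49 did not. HMGN1 knock out: 7 calls became 4 with the replicate block, 0 with only the compared groups and 4 with the male share as a covariate, and 1 to 7 with an array left out. HMGN1 effect minus HMGN3 effect: 2 became 1 with no filter, 1 with the block, 6 with only the compared groups, and 1 to 2 with an array left out. HMGN1 effect minus HMGN5 effect: 0 became 0 to 11 with an array left out. HMGN3 WT against HMGN1 WT: 6 became 1 with the male share and 3 to 6 with an array left out. HMGN5 WT against HMGN1 WT: 2 became 1 with the block, 1 with only the compared groups, 0 with the male share and 0 to 3 with an array left out. HMGN5 WT against HMGN3 WT: 1 became 2 with every probe set alone, 0 with only the compared groups and 0 to 2 with an array left out. N2swap against vector: 17 became 10 with only the compared groups, 10 with the Actb covariate and 11 to 21 with an array left out. N3swap against vector: 16 became 10 and 10. With only the compared groups, 13 calls became 5 for N2swap and 7 for N3swap against HMGN1. N2swap against HMGN2: 17 became 5 with the Actb covariate. Where a group was left with 2 arrays, the spread was pooled over groups. Fitting only the compared groups leaves fewer arrays for the spread. The cause of the other shifts was not tested.

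Direction changed in 6 called values. With the Actb covariate Pold1 became -0.069 (N3swap against vector), Mcm2 0.12 and 0.094 (N2swap and N3swap against HMGN1) and 0.31 (N2swap against HMGN2), and Fen1 -0.19 (N2swap against HMGN2). With the shared probe set Tyms became 0.21 (HMGN2 against HMGN1). Correlations of the deviations of same-numbered arrays ran from -0.39 to 0.38 and differed in sign between comparisons. For HMGN3a against vector in MIN6 cells all 3 were positive, at 0.08 to 0.36. Whether the numbers mark pairs cannot be told from these values, and the main fit did not pair arrays. With the block, 192 of 207 called member values stayed called and 15 did not.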
